A study of Mus musculus with 24 samples.

Results

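Acute phase proteins are plasma proteins whose level shifts in inflammation. Here 8 of their genes that fat cells are known to express were followed through adipocyte differentiation: *Hp*, *Orm1*, *Orm2*, *Orm3*, *Lcn2*, *Saa3*, *Serpina3n* and *C3*. They were taken by symbol from the 26995 genes of the tables, and all 8 were found. Each gene is represented by the 3′UTR entry with its highest mean total count over the 24 libraries. The set was chosen on measured values: the labelled reads of *Hp* and *Orm3* were among those with the largest rises to day 7, so their differences from day −2 are given as a description in both treatments. The cells were 3T3-L1, a mouse embryonic fibroblast line that becomes adipocytes after hormonal induction, and they were kept in DMSO or in 0.5 μM ML-792, an inhibitor of the enzyme that activates SUMO. In each treatment 3 replicates (A, B and C) were harvested at day −2, as pre-adipocytes, and at days 1, 3 and 7 of differentiation. Both treatments received dexamethasone, isobutylmethylxanthine and insulin at induction, and from day 3 insulin alone. All cells were labelled with 100 μM 4-thiouridine for 45 min, and reads with at least 1 T to C conversion are called labelled reads, a measure of newly made RNA, whereas total reads measure all polyadenylated RNA. The time at which ML-792 was added before the day −2 harvest is not given in the sources used here. All groups come from 1 immortal line, which has no liver, blood or immune cells around it.

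The acute phase response is best known from liver, where interleukin-6 acts through the factor STAT3, interleukin-1 through NF-κB and glucocorticoids through their receptor, together with the C/EBP factors. C/EBP factors are also central to adipocyte differentiation, and adipose tissue is a recognised source of several acute phase proteins outside the liver. *Hp* encodes haptoglobin, which binds free haemoglobin. *Orm1*, *Orm2* and *Orm3* encode orosomucoids, small plasma carriers of the lipocalin family. *Lcn2* encodes lipocalin 2, which withholds iron from bacteria by binding their siderophores. *Saa3* encodes an inducible serum amyloid A, a lipid-binding apolipoprotein made largely outside the liver. *Serpina3n* encodes a secreted inhibitor of serine proteases, and *C3* the central component of complement.

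Promoter sequences of 6 of the 8 genes were matched in RefSeq, each running from 250 bases before to 50 bases after the start site in build GRCm38.p6, and *Hp* and *Orm1* had no entry. The C/EBP pattern TTGCNNAA, searched on both strands, was present in 5 of the 6. Of all 32851 promoters of this length 10.8% held it, and of the 12704 promoters of genes tested in total reads 8.65%. The matching windows are shown because the C/EBP factors are shared by the acute phase response and by adipocyte differentiation. They are written 5′ to 3′ on the strand of the gene, and capitals mark the match:
*Orm2*, chr4:63362320-63362345, plus strand: gagaacattTTGCGCAAgacatttcc
*Orm3*, chr4:63356028-63356053, plus strand: gggaacattTTGCACAAgacatttat
*Lcn2*, chr2:32387939-32387964, minus strand: cccttcctgTTGCTCAAccttgcaca
*Saa3*, chr7:46715759-46715784, minus strand: taagtgggaTTATGCAAgatcaaaca
*C3*, chr17:57228165-57228190, minus strand: gaaactatgTTGCGAAAttttgggca

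The matches began at base −120 from the start site in *Orm2*, −121 in *Orm3*, −216 in *Lcn2*, −99 in *Saa3* and −45 in *C3*. The *Orm2* and *Orm3* windows lie at nearly the same distance and share most of their letters, and these genes are copies of one another, so they are not separate observations. In *Saa3* the pattern lies on the opposite strand, and the palindromic match of *Orm2* reads alike on both. A pattern of NF-κB sites with 10 letters was present in *Serpina3n* alone among the 6, and of all promoters 5.56% held it. The promoter of *Serpina3n* had no TTGCNNAA:
*Serpina3n*, chr12:104406528-104406555, plus strand: acagaggtgGGGCTTTTCCcatcaggaa

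No window of the 6 held the STAT pattern TTCNNNGAA, found in 8.30% of all promoters, or a pattern of glucocorticoid receptor sites with 15 letters, found in 0.0396%. Such matches describe letters within 300 bases and not the binding of a factor.

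The counted entries lie at the 3′ ends of the genes in mm10: *Hp* at chr8:109575128-109575270, *Orm1* at chr4:63348051-63348163, *Orm3* at chr4:63359398-63359511, *Orm2* at chr4:63365766-63365877, *Lcn2* at chr2:32384637-32384864, *Saa3* at chr7:46711998-46712125, *Serpina3n* at chr12:104413607-104414334 and *C3* at chr17:57203967-57204012. The 3 orosomucoid genes thus stand beside one another on chromosome 4. Their entries are close copies: *Orm1* and *Orm2* were identical at 111 of 112 aligned positions (99.1%), and *Orm3* matched *Orm1* at 99 of 113 (87.6%) and *Orm2* at 99 of 112 (88.4%). Reads of 50 bases from *Orm1* and *Orm2* can therefore be split or misassigned by the mapping, and their separate values are uncertain. *Serpina3n* and *Saa3* also belong to families of similar genes, for which the same limit holds.

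The libraries held 13554718 to 27013352 total reads and 115709 to 820046 labelled reads. Total reads allowed a test of all 8 genes, among 13274 genes tested, and labelled reads of 4 (*Hp*, *Orm3*, *Lcn2* and *C3*), among 6214. The 7 adipocyte markers, *Adipoq* and *Fabp4* among them, summed to 22256 to 23860 normalized counts in DMSO at day −2 and to 628090 to 703367 at day 7. The 6 pre-adipocyte or fibroblast markers went from between 278675 and 337714 to between 25209 and 37734. In the 24 libraries the leukocyte marker *Ptprc* and the hepatocyte marker *Apob* had 0 reads, *Adgre1* at most 5 and *Alb* at most 9. Other macrophage markers did have reads, *Cd14* at most 395 and *Cd68* at most 121, both above 3 reads in 24 libraries. *Csf1r* had at most 79 and *Lyz2* at most 31. Of the hepatocyte markers *Apoa1* had at most 26, *Ahsg* 20, *Fgb* 7 and *Ttr* 5. Levels are given below as normalized counts, that is counts brought to a common effective library size (total reads times the TMM factor).

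In DMSO the 8 genes followed different courses, which the plot of total counts by library shows gene by gene. At day 1 the libraries of 7 of the 8 lay above those at day −2 without overlap (21.9% of all genes tested), at day 3 those of 7 (29.0%) and at day 7 those of 8 (30.4%). Contrasts with day −2 in DMSO are tied to the choice of the set and carry no test. The mean was highest at day 7 for *Hp*, the 3 orosomucoids and *C3*, and at day 3 for *Lcn2*, *Saa3* and *Serpina3n*. For *Saa3* and *Serpina3n* the day 7 libraries all lay below those of day 1. In bulk samples a change in the number of cells expressing a gene and a change in RNA per cell cannot be told apart.

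**Figure D1:**
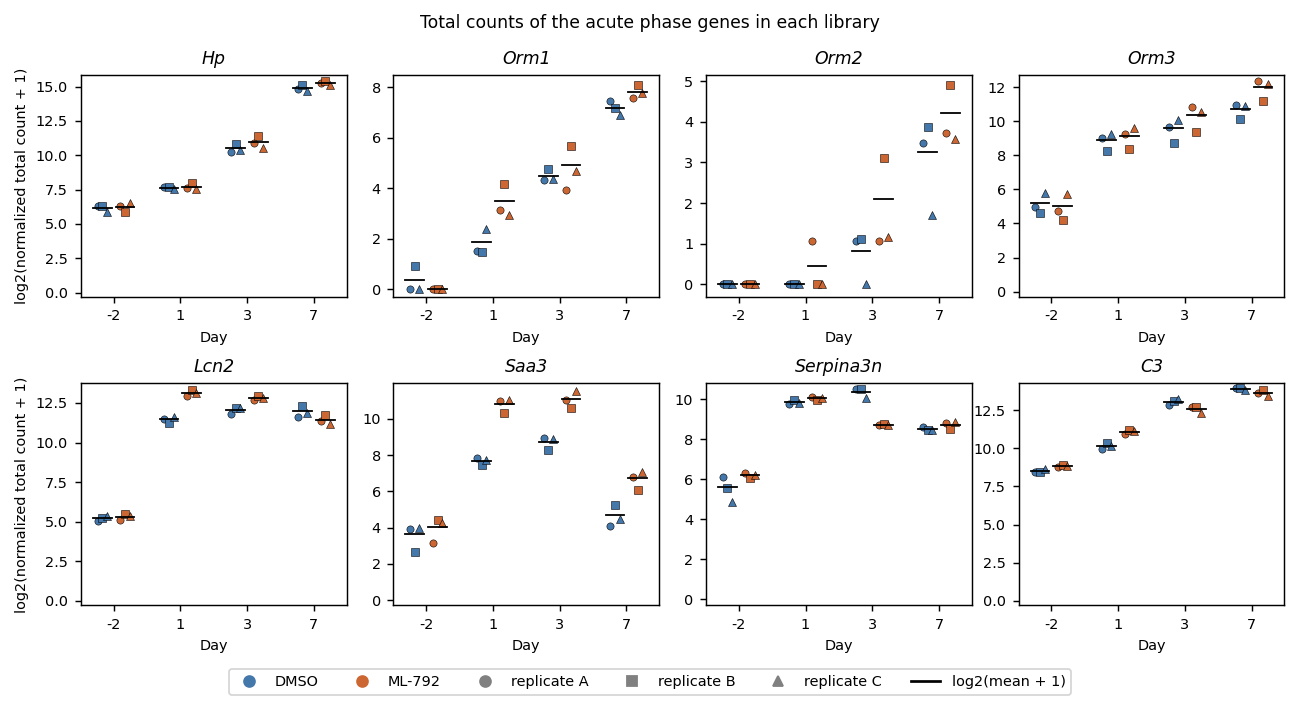
Total counts of the 8 acute phase genes in the 24 libraries, on a log2 axis of normalized counts plus 1, by day and treatment. Circles, squares and triangles are replicates A, B and C, and bars mark the log2 of the mean of 3 libraries plus 1. *Hp* and *C3* climb to day 7, *Saa3* and *Serpina3n* peak at days 1 to 3, and the ML-792 libraries of *Saa3* lie above the DMSO libraries at days 1, 3 and 7.

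*Hp*, the haemoglobin carrier, was higher at each later day. Its total counts in DMSO were 78.5, 77.5 and 58.3 at day −2 in replicates A, B and C, 200.3, 210.4 and 188.6 at day 1, 1193, 1800 and 1365 at day 3, and 29258, 35915 and 26608 at day 7. No 2 days overlapped. The fitted difference between day 7 and day −2 was 8.74 ± 0.27 (log2, SE, n = 3 per day), or 427-fold, as a description. Between days 1 and 3, a comparison the choice did not use, *Hp* rose 7.27-fold (log2 fold change 2.86 ± 0.21, edgeR adjusted p = 7.6e-08).

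*Orm1* was close to absent before differentiation, with 1 read in 3 libraries at day −2 and 2, 2 and 5 reads at day 1. It then reached normalized counts of 18.7, 25.9 and 19.5 at day 3 and of 172, 144 and 117 at day 7. The fitted difference of *Orm1* between days 3 and 1 was 2.95 ± 0.52 (log2), or 7.72-fold, given as a description. *Orm1* reached the count that the filter asks for in 0 libraries of day −2, 1 of day 1, 6 of day 3 and 6 of day 7. It thus entered the fit mainly through the days on which it was high. *Orm2* had 0 reads in the 6 libraries of days −2 and 1, 2 reads in all at day 3 and 9, 13 and 2 reads at day 7. Against a floor of 3 reads per library at day −2, its mean at day 7 was at least 3.39-fold higher.

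*Orm3* was present throughout, at 29.6, 23.8 and 54.8 in DMSO at day −2, 510, 309 and 607 at day 1, 805, 427 and 1071 at day 3, and 1952, 1109 and 1935 at day 7. The libraries of day −2 stood apart from all later ones. Its mean at day 1 was 475 ± 152 (SD, n = 3) against 36.1 ± 16.5 at day −2. Day 3 exceeded day 1 by 0.69 ± 0.35 (log2), which did not pass the test (adjusted p = 0.16), and the libraries overlapped. With the replicate letter in the fit it passed (adjusted p = 0.0030). Replicate B had the lowest *Orm3* level in 8 of 8 conditions, with a median log2 difference of −1.07 from the mean of A and C. Replicate B was lowest in all 8 conditions for 8.24% of genes, replicate A for 0.369% and replicate C for 0.904%. The spread between replicates was thus wide for *Orm3* within each condition.

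*Lcn2* had the largest difference between day −2 and day 1 among the members. Its counts were 32.0, 37.0 and 39.2 in DMSO at day −2 and 2928, 2426 and 3169 at day 1, a difference of 6.30 ± 0.26 (log2) given as a description. Levels of 3527, 4631 and 4663 at day 3 and of 3198, 5163 and 3732 at day 7 followed. Days 3 and 7 overlapped, and the excess of day 3 over day 1 (0.59 ± 0.20) did not pass the threshold (adjusted p = 0.035). It passed with the replicate letter in the fit (adjusted p = 0.0089).

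*Saa3* and *Serpina3n* had their highest DMSO mean at day 3 and were lower again at day 7. *Saa3* had 14.4, 5.29 and 14.8 at day −2, 228, 174 and 212 at day 1, 490, 312 and 480 at day 3, and 15.7, 36.4 and 21.6 at day 7. *Serpina3n* had 68.1, 46.7 and 27.9 at day −2, 864, 1011 and 900.0 at day 1, 1450, 1464 and 1058 at day 3, and 392, 356 and 357 at day 7. At day 7 *Saa3* was 2.13-fold and *Serpina3n* 7.71-fold above day −2 in the fit, and neither overlapped it. From day 1 to day 3 *Saa3* differed by 1.06 ± 0.31 (adjusted p = 0.018) and *Serpina3n* by 0.52 ± 0.23 (adjusted p = 0.11), neither past the threshold of 0.01. DESeq2 called *Saa3* there (adjusted p = 0.0034), as did the fits with no filter on low counts (0.0034), with the replicate letter (0.0079) and without replicate B (7.4e-04).

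*C3* was present before differentiation and higher at each later day. It had 348, 354 and 401 at day −2, 998, 1281 and 1141 at day 1, 7163, 8892 and 9451 at day 3, and 15746, 16171 and 14179 at day 7, with no overlap between days. From day 1 to day 3 it rose 7.46-fold (2.90 ± 0.18, adjusted p = 1.4e-08). In this comparison *Hp* and *C3* passed the test upward, beside 11.6% of all genes tested, and 0 of the 8 members passed it downward (11.7%). *Orm1*, given as a description, is not counted here.

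In ML-792 the differences from day −2 were tested for *Lcn2*, *Saa3*, *Serpina3n* and *C3*. These 4 were higher at day 1 in total reads (11.9% of all genes tested were higher), at day 3 (21.4%) and at day 7 (21.1%) at an edgeR adjusted p under 0.01, and 0 were lower (12.5%, 19.9% and 19.5%). The other 4 carry no test here, *Hp* and *Orm3* because of the choice, and *Orm1* and *Orm2* because in 0 libraries of day −2 they reached the count that the filter asks for. *Orm2* reached it in 3 libraries, all of day 7, so it entered the fits only through the day on which it was high. It had 0 reads in 3 libraries at day −2, 1 read in all at day 1 and 10, 23 and 8 reads at day 7, a mean at least 7.88-fold above the floor. *Orm1*, also at 0 reads in 3 libraries at day −2, was at least 4.66-fold higher at day 1 and at least 101-fold higher at day 7.

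*Hp* went from 77.6, 57.0 and 89.6 at day −2 in ML-792 to 38823, 43377 and 36149 at day 7, a fitted difference of 9.04 ± 0.31 (log2), and *Orm3* from 25.9, 17.2 and 52.4 to 5173, 2368 and 4662 (6.98 ± 0.57), both as a description. The libraries of the 2 days did not overlap for either gene. *C3* rose 27.2-fold to day 7 (4.77 ± 0.18, adjusted p = 1.8e-10).

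*Lcn2* reached its highest mean of the 8 conditions in ML-792 at day 1. It rose 233-fold over day −2 (7.86 ± 0.24, adjusted p = 4.6e-10), and its mean then went from 9053 ± 1254 (SD) at day 1 to 7321 ± 647 at day 3 and 2787 ± 578 at day 7. *Saa3* rose 112-fold at day 1 (6.81 ± 0.40, adjusted p = 6.4e-08) and 138-fold at day 3 (7.11 ± 0.41, adjusted p = 1.1e-08), but 6.52-fold at day 7 (2.70 ± 0.38, adjusted p = 5.2e-05). *Serpina3n* rose 14.6-fold at day 1 (3.87 ± 0.15, adjusted p = 2.8e-09), 5.84-fold at day 3 (2.55 ± 0.15, adjusted p = 1.1e-08) and 5.82-fold at day 7 (2.54 ± 0.15, adjusted p = 9.3e-09).

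ML-792 was next compared with DMSO within each day, which asks how the activity of the SUMO pathway bears on these genes. At day −2 none of *Lcn2*, *Saa3*, *Serpina3n* and *C3* passed this test in edgeR, and 0.00% of all genes tested did. *Orm1* and *Orm2* reached the count of the filter in 0 libraries of that day and are not counted. Without overlap 1 of 8 was higher in ML-792 (2.61% of all genes), *C3*, at 442, 476 and 466 against 348, 354 and 401 (0.33 ± 0.15, adjusted p = 1). *C3* and *Serpina3n* had an unadjusted p under 0.05 there, and DESeq2 also called 0. At day 1 *Saa3*, *Lcn2* and *C3* were higher in ML-792 (3.83% of all genes tested), and 0 members were lower (4.06%). *Orm1* and *Orm2* reached the count of the filter in 1 and 0 libraries of day 1, so they are a description there. At day 3, 2 were higher (8.08%), *Saa3* and *Lcn2*, and 2 were lower (7.54%), *Serpina3n* and *C3*. At day 7, where *Hp* and *Orm3* were not tested because that day chose them, *Saa3* was higher (6.35% of all genes) and *Lcn2* lower (5.45%) among the other 6. Without overlap between the treatments, *Saa3*, *Lcn2* and *C3* were higher at day 1 (10.2% of all genes), and *Orm1* as a description. At day 3, 2 were higher and 2 lower (12.7% in each direction). At day 7 *Saa3* and *Orm1* were higher (13.6%), and *Hp* and *Orm3* also lay higher, as a description because that day chose them. The plot of ML-792 effects sets the days side by side.

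**Figure D2:**
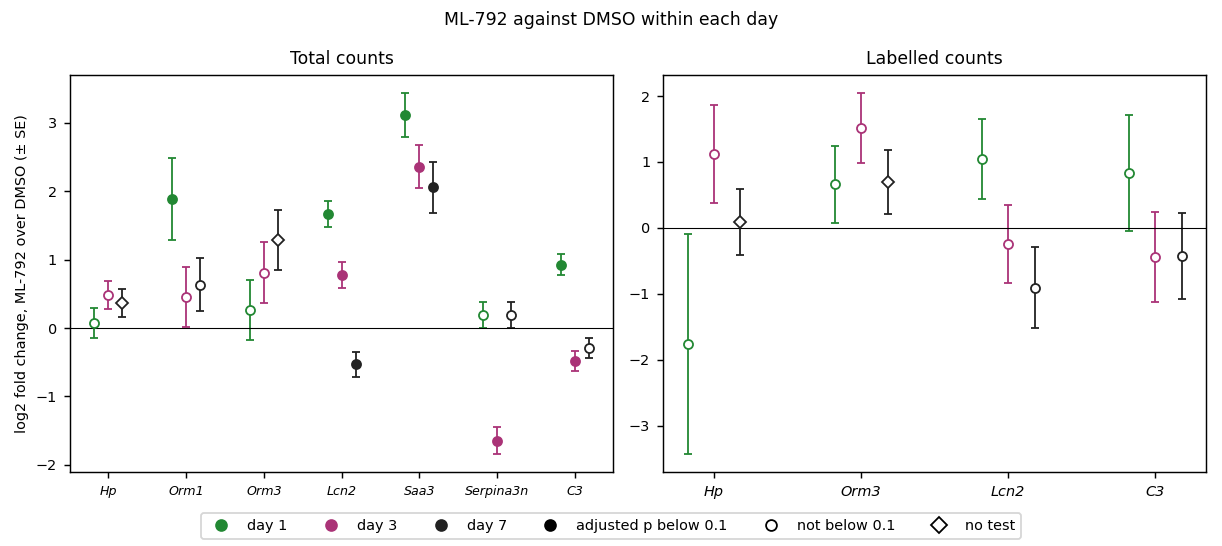
Fitted log2 fold change of ML-792 over DMSO at days 1, 3 and 7 with its SE (n = 3 libraries against 3), for total counts (left) and labelled counts (right). Filled circles passed an adjusted p of 0.1, open circles did not, diamonds carry no test, and *Orm2*, at under 30 reads in every library, is left out. *Orm1* in total counts at day 1 is a description, as are *Hp* in labelled counts and *C3* in labelled counts at day 1. *Saa3* lies at 3.12, 2.36 and 2.06 on the 3 days, while *Lcn2* runs from 1.67 to −0.53.

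*Saa3* had the largest fitted difference among the members on each of days 1, 3 and 7. At day 1 it had 2002, 1266 and 2074 in ML-792 against 228, 174 and 212 in DMSO, an 8.68-fold rise (3.12 ± 0.32, adjusted p = 8.1e-07). At day 3 it had 2106, 1538 and 2940 against 490, 312 and 480 (5.14-fold, adjusted p = 1.2e-05). At day 7 it had 111, 67.2 and 133 against 15.7, 36.4 and 21.6 (4.16-fold, adjusted p = 9.0e-04). The libraries of the 2 treatments did not overlap on any of the 3 days. Without replicate C the adjusted p at day 7 was 0.11, above the threshold of 0.1. The difference of the effect between days 3 and 1 did not pass the test (−0.76 ± 0.43, adjusted p = 0.54), and passed it without replicate B (adjusted p = 0.087).

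*Lcn2* rose with ML-792 at days 1 and 3. It had 7799, 10306 and 9054 at day 1 against 2928, 2426 and 3169 in DMSO, a 3.19-fold rise (1.67 ± 0.19, adjusted p = 2.2e-06). At day 3 it had 6703, 7994 and 7265 against 3527, 4631 and 4663 (1.71-fold, adjusted p = 0.0064), and the libraries did not overlap on either day. The day 3 call was lost without replicate A (adjusted p = 0.15) and without replicate C (adjusted p = 0.10). At day 7 it had 2595, 3437 and 2330 against 3198, 5163 and 3732, and the groups overlapped. The fitted fall of 0.53 ± 0.18 (log2) passed the threshold narrowly (adjusted p = 0.090) and missed it in 5 of 10 alternative settings, where the highest adjusted p was 0.53.

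The effect on *C3* also differed between days. At day 1 it had 1943, 2331 and 2219 in ML-792 and 998, 1281 and 1141 in DMSO, a 1.90-fold rise (0.92 ± 0.15, adjusted p = 2.9e-04). At day 3 it had 6527, 6562 and 5161 against 7163, 8892 and 9451, a fall of 0.48 ± 0.15 (log2, adjusted p = 0.042). This fall missed the threshold without replicate A (adjusted p = 0.13), without replicate C (0.59), with no filter on low counts (0.20) and with only the 6 libraries of the day in the fit (0.21). At day 7 the groups overlapped, at 12529, 14331 and 10777 against 15746, 16171 and 14179 (−0.29 ± 0.15, adjusted p = 0.31).

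*Serpina3n* was lower in ML-792 at day 3 and not called on the other days. Its counts at day 3 were 416, 435 and 418, against 1450, 1464 and 1058 in DMSO, a 3.13-fold fall (−1.65 ± 0.20, adjusted p = 2.1e-06). At day 1 it had 1110, 999.9 and 1068 against 864, 1011 and 900.0 (0.20 ± 0.19, adjusted p = 0.74), and at day 7 442, 364 and 458 against 392, 356 and 357 (0.19 ± 0.19, adjusted p = 0.68). In ML-792 the highest mean was that of day 1, whereas in DMSO it was that of day 3. The ML-792 libraries of days 3 and 7 overlapped.

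*Orm1* had 7, 14 and 7 reads in ML-792 at day 1 against 2, 2 and 5 in DMSO (3.69-fold, 1.88 ± 0.60, adjusted p = 0.082). It reached the count of the filter in 1 library of day 1, so this difference is a description. Its place under the threshold rested on few reads. It was lost without replicate A (adjusted p = 0.39), without replicate B (0.45), without replicate C (0.19), with a filter of 10 reads over the libraries (0.11) and with only the libraries of that day (0.41). *Orm1* was not called at day 7 (0.64 ± 0.38, adjusted p = 0.42), although its 3 ML-792 libraries (187, 272 and 215) lay above its DMSO libraries. *Orm2* was not called on any day.

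*Hp* was not called at day 1 (0.07 ± 0.22, adjusted p = 0.94). At day 3 it had 1930, 2725 and 1444 in ML-792 against 1193, 1800 and 1365 (0.48 ± 0.21, adjusted p = 0.17). It passed without replicate B (0.40, adjusted p = 0.084) and with the replicate letter in the fit (adjusted p = 0.033). At day 7 its ML-792 libraries all lay above its DMSO libraries, with a fitted difference of 0.37 ± 0.21 as a description. *Orm3* had 1850, 662 and 1515 at day 3 in ML-792 against 805, 427 and 1071 (0.81 ± 0.44, adjusted p = 0.34). It had 5173, 2368 and 4662 at day 7 against 1952, 1109 and 1935. The day 7 libraries did not overlap, and the fitted difference was 1.29 ± 0.44, also as a description. With no filter on low counts the day 3 difference passed the test (adjusted p = 0.0044), as it did without replicate B (0.020) and with the replicate letter in the fit (5.1e-04).

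The effect of ML-792 itself was compared between days 3 and 1. It was lower at day 3 for 3 members (2.21% of all genes tested) and higher for 0 (2.42%). The 3 were *Serpina3n* (−1.84 ± 0.27, adjusted p = 2.1e-04), *C3* (−1.41 ± 0.21, adjusted p = 3.0e-04) and *Lcn2* (−0.90 ± 0.26, adjusted p = 0.070). The difference for *Lcn2* was lost without replicate A (adjusted p = 0.34), without replicate C (0.47) and with only the 12 libraries of both days (0.10). Day 7 was set against day 1 after the values of *Lcn2* and *C3* had been seen. The effect on *Lcn2* was then lower by 2.20 ± 0.26 (adjusted p = 8.9e-06) and that on *C3* by 1.22 ± 0.21 (adjusted p = 9.9e-04), while that on *Serpina3n* did not pass the test (adjusted p = 1.0). These 2 members stand beside 3.59% of all genes, and 0 were higher (4.64%). In both comparisons *Orm1* and *Orm2*, a description at day 1, are not counted. Without replicate A the adjusted p for *C3* was 0.10.

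Markers of cell types also differed between the treatments, in both directions within the adipocyte and pre-adipocyte lists. At day 1, where *Saa3*, *Lcn2* and *C3* were higher in ML-792, the 6 macrophage markers summed to between 258 and 446 in ML-792 and between 165 and 194 in DMSO. *Cd14*, which is also an acute phase gene, was the 1 macrophage marker called there, of 4 tested (1.10 ± 0.29, adjusted p = 0.027), while *Ptprc* stayed at 0 reads. The sum of the pre-adipocyte markers at day 1 was 105456 to 163660 in ML-792 and 176007 to 193755 in DMSO, with 2 of 6 called lower (*Col3a1* and *Pdgfrb*) and 1 higher (*Thy1*). That of the adipocyte markers was 35448 to 41616 and 42531 to 44623, although 2 of 7, *Fabp4* and *Plin1*, were called higher. At day 3, where *Serpina3n* and *C3* were lower, 2 of 7 adipocyte markers were called lower in ML-792 and 3 of 6 pre-adipocyte markers higher. *Adipoq* had a mean of 16858 ± 1689 (SD) against 31235 ± 4006 (adjusted p = 0.011), and *Lpl* was the other marker called lower. *Pdgfra* had 2670 ± 60.6 against 976 ± 155 (adjusted p = 5.0e-08), *Col1a1* 17673 ± 2514 against 7427 ± 744 (adjusted p = 2.9e-04), and *Thy1* was also higher. The sums at day 3 overlapped, at 411379 to 471035 against 374505 to 511501 for the adipocyte markers and 31935 to 41082 against 27633 to 36268 for the pre-adipocyte markers. At day 7 the adipocyte sum was 859648 to 881527 in ML-792 and 628090 to 703367 in DMSO, with 2 of 7 markers called higher, and that of the pre-adipocyte markers 44001 to 63323 and 25209 to 37734, with 3 of 6 called higher and 1 lower. Of all genes tested, 3.83% were called higher and 4.06% lower at day 1, 8.08% and 7.54% at day 3, and 6.35% and 5.45% at day 7. The part of the marker shifts in the members' values was not tested.

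Labelled reads were few for most members. *Hp* had 0 labelled reads in DMSO at day −2 (0 of 253 reads, which allows a share of up to 1.19%), 1 at day 1, 2, 5 and 2 at day 3, and 65, 70 and 74 at day 7. Against a floor of 3 reads per library, its labelled level at day 7 was at least 30.0-fold above day −2. *Orm3* had 3, 0 and 0 labelled reads at day −2, 11, 16 and 17 at day 1, 23, 12 and 40 at day 3, and 363, 169 and 403 at day 7. Labelled rises of this kind led to the choice of both genes. The labelled libraries lay above those of day −2 for 2 of the 4 members with enough labelled reads at day 1 (2.41% of all genes tested), 4 at day 3 (4.41%) and 4 at day 7 (4.72%), again as a description. The median labelled change of all genes between days −2 and 7 was −1.44 (log2), and the share of labelled reads in the DMSO libraries went from 3.17% ± 0.49 (SD, n = 3) at day −2 to 1.03% ± 0.09 at day 7.

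In labelled reads none of the 4 members reached the count of the filter in any library of day −2, so each entered the fits through later days, and differences from day −2 in ML-792 are a description too. *Hp* reached it in 7 libraries, of which 6 were of day 7. In ML-792 *Hp* had 0, 1 and 2 labelled reads at day −2 and 51, 63 and 75 at day 7. *Orm3* had 3, 2 and 10 and then 633, 214 and 476, and *C3* 0, 6 and 2 and then 16, 27 and 22. *Lcn2* had 0, 0 and 3 labelled reads at day −2, 15, 36 and 18 at day 1 and 6, 7 and 20 at day 7. The counts of day 7 lay above those of day −2 for each of the 4. The median labelled difference of all genes between these days in ML-792 was −1.67 (log2).

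Between the treatments no test of labelled reads is counted at day −2, where none of the 4 members reached the count of the filter. *Hp* reached it in 0 libraries of day 1 and 1 of day 3, and *C3* in 0 of day 1, so these are a description. *Lcn2* and *Orm3* at day 1, these 2 and *C3* at day 3, and *Lcn2* and *C3* at day 7 did not pass edgeR's test. The share of all genes that passed was 1.01% and 1.17% at days 1 and 3, and 0.982% at day 7. *Orm3* at day 3 was the member with an unadjusted p under 0.05 (1.52 ± 0.53, adjusted p = 0.27), and DESeq2 called 0. It had 113, 35 and 68 labelled reads in ML-792 against 23, 12 and 40 in DMSO, and it passed the threshold in 5 of 11 alternative settings, for example without replicate B (adjusted p = 0.032). *Lcn2* at day 1 had 15, 36 and 18 labelled reads in ML-792 against 14, 10 and 17 (1.05 ± 0.61, adjusted p = 0.54). For the effect of ML-792 on labelled reads between days 3 and 1, *Lcn2* and *Orm3* did not pass the test (0.0161% of all genes did). Between days 7 and 1 *Lcn2* did not pass it (0.241% did), with an unadjusted p under 0.05, and DESeq2 called 0. The rises of *Lcn2* and *C3* in total reads at day 1 were not detectable in labelled reads at this depth. *Saa3* failed the filter in labelled reads, with 6, 7 and 6 in ML-792 at day 1 against 0, 0 and 4 in DMSO. From day 1 to day 3 in DMSO *Lcn2* and *Orm3* did not pass in labelled reads, beside 1.61% of all genes upward, and DESeq2 called 0. Both had an unadjusted p under 0.05. *Hp* and *C3* reached the count of the filter in 0 libraries of day 1, so their differences here are a description. *C3* had 0, 9 and 1 labelled reads at day 1 and 15, 12 and 29 at day 3 (2.83 ± 0.79).

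The share of a gene's reads that was labelled set *Orm3* apart from the other members, as the plot of labelled shares shows. At day 7 in DMSO 20.8% of its reads were labelled (935 of 4503, Wilson 95% interval 19.6% to 22.0%), and 99.8% of the 10307 genes with at least 100 reads had a lower share. In ML-792 at day 7 the share was 13.9% (13.2% to 14.6%), above 99.7% of genes. It was 2.36% (0.807% to 6.72%) in DMSO at day −2, 2.73% at day 1 and 3.80% at day 3, and 11.2% (6.90% to 17.6%) in ML-792 at day −2, where it rested on 15 of 134 reads. Such intervals cover counting error only. The median gene had 0.886% at day 7 in DMSO, and *Hp* (0.249%), *C3* (0.243%) and *Lcn2* (0.677%) lay below it. *Orm1* had 1.02% and *Serpina3n* 1.19%, above it, on 4 and 12 labelled reads. *Hp* and *C3* thus had a small labelled share beside a large labelled difference from day −2. For *C3* in DMSO the pooled share was 0.308%, 0.260%, 0.257% and 0.243% on days −2, 1, 3 and 7. That of *Hp* was 0% (0 of 253 reads), 0.149%, 0.241% and 0.249% on the same days. All 24 libraries received 4-thiouridine, so the share these genes would show without it is unknown. Whether the labelled reads of *Hp* and *C3* mark newly made RNA was not tested.

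**Figure D3:**
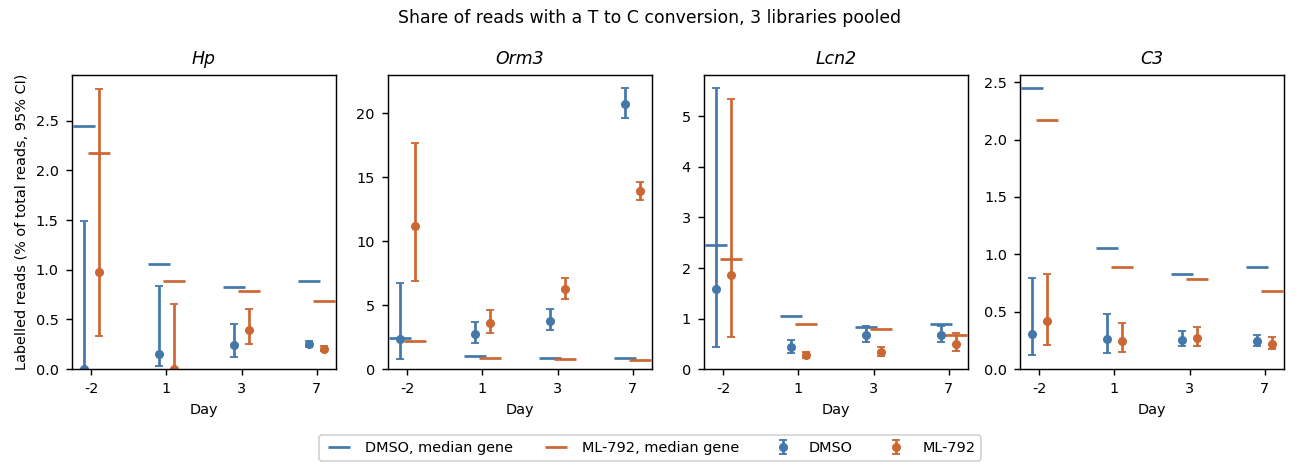
Labelled reads as a percentage of total reads for the 4 members tested in labelled counts, with the reads of the 3 libraries of a condition pooled. Points carry the Wilson 95% interval, and horizontal dashes mark the median over genes with at least 100 reads. *Orm3* stands at 20.8% in DMSO and 13.9% in ML-792 at day 7, whereas *Hp* and *C3* stay under 0.3% there.

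A conversion is counted where a read has C and the reference has T, and the neighbouring orosomucoid genes differ from *Orm3* at such positions. Counted from the first base of the *Orm3* entry, both *Orm1* and *Orm2* carry T36C, T48C and T81C, the *Orm3* base being given first. A read of *Orm1* or *Orm2* placed on *Orm3* could thus hold a C without any labelling. Reads assigned to *Orm1* and *Orm2* amounted to 0.559% of those assigned to *Orm3* in DMSO at day 1, 2.89% at day 3 and 9.28% at day 7, and to 5.94% in ML-792 at day 7. From day 1 to day 7 in DMSO these percentages and the labelled share of *Orm3* were both higher at each later day, but in ML-792 at day −2 0 such reads stood beside a labelled share of 11.2%. Their part in the share was not tested. The total counts of *Orm3* could hold such reads too.

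The other genes of the response were taken from 4 lists, and the counts below compare the 2 treatments in total reads. Of 40 other acute phase proteins 19 were tested, of which 4 were higher and 3 lower in ML-792 at day 7, where 6.35% of all genes were higher and 5.45% lower. At day 1 it was 3 and 0 (3.83% and 4.06% of all genes), with a median of −0.27. At day 3 it was 2 and 4 (8.08% and 7.54%), with a median of −0.53. *Serpina3k*, a relative of *Serpina3n*, was 10.1-fold higher at day 7 (3.34 ± 0.66, adjusted p = 0.0022), with a mean of 49.3 against 4.76, and *Steap4*, a metalloreductase, 4.19-fold higher (2.07 ± 0.61, adjusted p = 0.042). *Hpx*, which encodes the haem carrier haemopexin, was 11.9-fold lower (−3.57 ± 0.49, adjusted p = 3.0e-05), at 21.9 ± 3.38 (SD) against 261 ± 31.1. *Trf*, the iron carrier transferrin, was 8.80-fold lower (−3.14 ± 0.53, adjusted p = 3.8e-04). At day 3 *Serpina3k* was lower in ML-792 (−4.02 ± 0.74, adjusted p = 6.5e-04), as *Serpina3n* was. Reads of these 2 related genes may be shared, so the separate values of *Serpina3k* are uncertain. The median of the 19 genes at day 7 was 0.66, beside 0.01 over all genes.

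Of 29 complement genes 19 were tested, and 6 were higher and 0 lower in ML-792 at day 7, with a median of 0.33, beside the same 6.35% and 5.45% of all genes. At day 1 it was 2 and 0 (3.83% and 4.06% of all genes) and at day 3 it was 4 and 0 (8.08% and 7.54%). The 2 with the largest rise at day 7 were *Clu*, which encodes clusterin (4.16-fold, adjusted p = 0.021), and *C1ra*, a protease of the first complement component (2.55-fold, adjusted p = 0.0056). *C3* itself was not called at day 7. Of 31 genes of cytokine signalling and of the factors of the response, 31 were tested, and 5 were higher and 1 lower at day 7, with a median of 0.02, after 3 and 3 at day 1 and 4 and 4 at day 3. At day 7 *Socs3*, the feedback inhibitor of the interleukin-6 pathway, was 2.90-fold higher (adjusted p = 0.0090), with a mean of 2452 ± 929 against 846 ± 421. *Tnfaip3*, a feedback inhibitor of NF-κB, was 2.45-fold higher (adjusted p = 0.025), and the kinase gene *Jak2* was 1.43-fold lower (adjusted p = 0.079). Among receptors and partners of the members, 16 of 24 were tested, 3 were higher and 1 lower at day 7, with a median of 0.27, after 1 and 0 at day 1 and 1 and 1 at day 3. The counts of the cytokine and receptor lists stand beside the same shares of all genes as those of the complement genes. *Mmp9*, whose product binds lipocalin 2, was higher at day 7 (2.82 ± 0.99, adjusted p = 0.096) at a mean of 11.1 against 1.45, and the fatty acid transporter *Cd36* was then 2.00-fold higher (adjusted p = 0.0053). *Hmox1*, the haem oxygenase that acts on haem cleared by haptoglobin and haemopexin, was lower at day 7 (−1.12 ± 0.33, adjusted p = 0.039).

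Over the 24 libraries the members' patterns were described by Pearson correlations of log2 normalized total counts, whose points share libraries, days and treatments. *Hp* was closest to *Cfd* (r = 0.990), the adipocyte gene of complement factor D, then to *Pxmp2* and *Bnip3*. *C3* was closest to *Pcx* (r = 0.989), the pyruvate carboxylase gene, then to *Lipe* and *Slc1a3*. *Orm1* was closest to *Hp* (r = 0.975), *Orm2* to *Gys2* (0.935) and *Orm3* to *Ech1* (0.958). *Lcn2* was closest to *Gda* (0.979), then to *Tead4* (0.976) and *Fkbp5* (0.974). *Saa3* was closest to *Ctps* (0.969) and *Serpina3n* to the collagen gene *Col4a1* (0.963). Between members the coefficient was 0.925 for *Hp* with *C3* and 0.901 for *Lcn2* with *Serpina3n*, but 0.0655 for *Hp* with *Saa3*.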

How the data were processed

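Reads of 3′ mRNA libraries (single reads of 50 bases) were mapped and filtered by the authors with SlamDunk to mm10 and counted on RefSeq 3′UTR coordinates. The deposited values are raw counts of total and of labelled reads for 91830 entries, with no normalization. Overlapping entries of 1 gene can hold the same reads. Libraries were assigned by sample title, and 6 library columns per table that match no sample were not used. The genes and lists were chosen with earlier results of these data known. The number of T bases in the 8 entries was checked against the reference genome and was equal for all 8. No 2 replicates held the same counts (lowest chi-square per gene over 24 pairs, 11.5).

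Counts were analysed in R 4.3.3 with edgeR 4.0.16 (quasi-likelihood test, robust), with TMM factors of the total counts for both readouts and filterByExpr over 8 conditions (minimum count 10, minimum total 15). The DMSO contrasts were fitted in the 12 DMSO libraries, the ML-792 time course in the 12 ML-792 libraries and ML-792 against DMSO in all 24. P-values were adjusted by Benjamini-Hochberg over all entries tested, with thresholds of 0.01 for time and 0.1 for ML-792. A percentage of all genes takes 1 entry per gene. SE is that of the log2 fold change from the F-statistic. The correlations used a prior count of 2. Genes named beside the 8 are, per list, the 2 highest and 2 lowest called at day 7, the 3 genes of closest correlation and cell type markers. The fits were tested on simulated data. Alternatives were DESeq2 1.42.0, RLE factors, a filter of 10 reads or none, a single entry for each gene, a block for the replicate letter, each replicate left out, another set of libraries in the fit, and labelled counts scaled by labelled reads. Sequences come from RefSeq (GRCm38.p6). Patterns and alignments were computed with Python 3.11.15 and Biopython 1.88.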

Additional observations from a re-analysis of the deposited data

Results flagged for a closer look

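The effect of ML-792 on 3 members differed between days by the test of the difference itself, in total reads. Between days 3 and 1 the log2 difference was −1.84 for *Serpina3n*, −1.41 for *C3* and −0.90 for *Lcn2*. Between days 7 and 1, a comparison chosen after seeing the data, it was −2.20 for *Lcn2* and −1.22 for *C3*. For *C3* the treated libraries lay above the DMSO libraries at day 1 and below them at day 3. For *Lcn2* they lay above at days 1 and 3 and overlapped at day 7.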

How the results depend on the processing

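Over 1112 recomputed fold changes of members under the alternatives, 1059 kept their direction and side of the threshold, or changed sign with no call in either setting (17), while 31 lost a call, 22 gained one and 0 changed direction. No adjusted p was given by DESeq2 in 2 further cases. The number of member calls in DMSO between days 3 and 1 was 3 in total reads and 6 with the replicate block, and 2 to 4 with a replicate left out. Of these calls, that of *Orm1* is given above as a description. In labelled reads the number was 0, and 1 with a filter of 10 reads, with labelled counts scaled by labelled reads and without replicate B. The 1 was *C3*, given above as a description, and the range with a replicate left out was 0 to 1. For ML-792 against DMSO it was 10 in total reads, 6 without replicate A and 5 without replicate C (range 5 to 11). The 10 include that of *Orm1* at day 1, given above as a description. In labelled reads it was 0, and 1 (*Orm3* at day 3) with a filter of 10 reads, with no filter, with the replicate block, without replicate B and with only the libraries of the day (range 0 to 1). In the ML-792 time course *Lcn2*, *Saa3*, *Serpina3n* and *C3* kept their calls in total reads at days 1, 3 and 7 in 10 of 10 alternative settings. Its other differences from day −2, those in labelled reads included, are a description, and their calls are not counted here. They are among the 1112 fold changes above. For the effect at day 3 minus day 1 the number of calls with a replicate left out was 2 to 4 in total reads (3 with all) and 0 in labelled reads.

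The replicate block raised the number of genes called in total reads over 1.5 times in 6 of 10 comparisons, for example from 1048 to 2087 for ML-792 at day 1. Leaving out replicate A or C lowered it over 1.5 times in 9 of 10 (to 305 and 449 at day 1). In labelled reads at day 1, 63 genes were called, and 179 with the block, 164 by DESeq2, 17 without A and 18 without C. Libraries of the same letter deviated together, with a mean r of 0.215 over 84 pairs, of which 70 lay above 0.1. Pairs of different letters had a mean r of −0.105, and 25 of 168 lay above 0.1. The replicates thus shared a structure that the main fits leave out. As not all pairs of the same letter lay above 0.1, the letters were not taken as a pairing, and some results not called above depend on this choice. With the block, *Lcn2* and *Orm3* also passed between days 3 and 1 in DMSO, *Saa3* too, and *Hp* and *Orm3* passed for ML-792 at day 3 in total reads (adjusted p = 0.033 and 5.1e-04). Labelled reads allowed no test of 4 of the 8 members.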
